A study of Mus musculus with 12 samples.

Results

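Predicted genes are mouse gene models whose names consist of the letters Gm and a number. The 589 examined here were chosen by their level, as those with a mean of at least 10 CPM (a library's count of the gene scaled to a common library total) over the 6 libraries of renal tubular epithelial cells (TECs), of 24177 predicted genes and 50433 gene rows in the TEC table. Of all predicted genes, 9202 had any count in TECs. The rule used the mean level over all 6 libraries and not the difference between the groups, but it was set with earlier results of these data known, so the levels that follow are a description.

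A Gm name is given to a gene model that an annotation pipeline proposed and that has not received a name for its function, so the class mixes noncoding RNAs, pseudogenes and copies of repeated DNA. Nuclear chromosomes carry pieces of mitochondrial DNA, arrays of pericentromeric satellite DNA, copies of the LINE-1 retrotransposon, which encodes a reverse transcriptase, and processed copies of messenger RNAs, and annotations place predicted genes on all of these. A short read from such a sequence matches several places, and Salmon, the tool that made these counts, divides it among them by estimation. An estimated count of such a gene is therefore a count given to that name and need not be RNA from that position.

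The libraries came from wild-type C57BL/6J male mice of 8 to 12 weeks with ischemia-reperfusion injury (IRI), made by clamping both renal pedicles. The mice received glutamine, given as the dipeptide alanyl-glutamine, or saline as vehicle through a vein, and no library from mice without IRI was used here. TECs were sorted from the kidney as CD45- and Prominin-1+ cells 24 hours after IRI, in 3 glutamine libraries (replicates 1, 2 and 3) and 3 vehicle libraries (replicates 3, 4 and 5), and neutrophils (PMNs) came from the blood at the same time, in 3 libraries per group. The labels do not state that each library is a separate animal, so p-values measure the spread between these libraries. RNA was reverse transcribed from its polyA tail and read in single reads of 50 bases. The TEC libraries held 5397445 to 10223546 counts, with glutamine replicate 2 the shallowest, and the PMN libraries 20225151 to 21878357 counts. A count of 3, taken as the floor of detection, was 0.293 to 0.556 CPM in TECs.

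Of the 589 genes, 564 matched a gene of GENCODE M21, the mouse annotation on the GRCm38 build, by their symbol. GENCODE holds 163 of them as models still to be tested by experiment, 86 processed pseudogenes, 82 long intergenic noncoding RNAs, 72 antisense RNAs and 62 protein coding. Every transcript was split into its overlapping words of 50 bases, the length of a read, and each word was searched in the transcripts of all other genes on both strands. Of the 564 genes, 191 shared at least 50% of their words with a gene of another name and 166 shared less than 5%. The annotated span of 156 genes overlapped a coding gene on the same strand and that of 151 a coding gene on the opposite strand. The genes fell into classes by these words, except that the rRNA locus was set by position, within 5000 bases of an annotated rRNA gene. The classes were set after levels had been seen, so they carry no test of their own. They comprised 2 mitochondrial-like genes, 2 genes at an rRNA locus, 12 satellite-like genes, 72 LINE-1-like genes, 106 genes with at least 50% of their words in named coding genes, 29 with at least 50% in other genes, 341 with mostly their own sequence and 25 without an entry in GENCODE M21.

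Sequences of the genes that carried most of the counts are shown 5′ to 3′ from the GENCODE M21 transcripts, because they show what a read of 50 bases can and cannot tell apart. The most abundant, Gm29216 (ENSMUSG00000101249.1, a single exon of 492 bases at chr1:24615706-24616197 on the minus strand, annotated as an unprocessed pseudogene), is a copy of a piece of mt-Co1, the mitochondrial gene of cytochrome c oxidase subunit I. The first 120 bases of Gm29216 (chr1:24616078-24616197) stand above the same bases of mt-Co1 (chrM:6381-6500), with mismatches in capitals.
Gm29216: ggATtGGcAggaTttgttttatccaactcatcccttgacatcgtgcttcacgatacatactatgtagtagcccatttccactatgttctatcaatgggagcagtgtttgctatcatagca
mt-Co1: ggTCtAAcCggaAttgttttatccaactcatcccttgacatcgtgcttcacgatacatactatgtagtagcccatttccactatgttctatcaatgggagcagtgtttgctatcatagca
Over its 492 bases Gm29216 differed from mt-Co1 at 6 positions, counted from 1 at its 5′ end and written with the Gm29216 base first: A3T, T4C, G6A, G7A, A9C and T13A. The 479 bases after the last mismatch were identical. A read of 50 bases from any place beyond base 13 therefore carried no base that separates both genes. The TEC table held 0 rows for the symbols that GENCODE M21 places on the mitochondrial genome, so mt-Co1 itself has no value here. It also held 0 rows for those on chromosomes X and Y, so shares and CPM are relative to the rows of the table as used here. The other mitochondrial-like gene, Gm13339 (510 bases at chr2:22590024-22590533, minus strand, an unprocessed pseudogene within the span of Myo3a on the opposite strand), matched mt-Nd2, a subunit gene of mitochondrial complex I, with 17 mismatches and 96.7% identity. A stretch of 120 bases with 7 of these mismatches in capitals (chr2:22590281-22590400 and chrM:4575-4694) shows that they are spread out.
Gm13339: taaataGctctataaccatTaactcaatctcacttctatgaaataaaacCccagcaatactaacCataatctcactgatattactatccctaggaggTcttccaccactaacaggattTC
mt-Nd2: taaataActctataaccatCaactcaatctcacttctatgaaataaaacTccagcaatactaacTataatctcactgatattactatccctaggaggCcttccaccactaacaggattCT

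The 12 satellite-like genes share sequence, and the 5 most abundant were searched for a repeated unit. In Gm10719 the sequence matched itself best when shifted by 234 bases, at 64.6% of the bases against a median of 31.3% over all shifts, and the best shift was also 234 bases in Gm10718 and Gm21738, 225 in Gm10800 and 231 in Gm10801. The window of 117 bases of Gm10719 with the fewest mismatches over the 12 genes was chosen, at the best-matching place in each gene. It is given for the 5 most abundant satellite-like genes, with the 105 bases identical in all 5 in capitals. The windows lie at chr2:98666555-98666736 on the minus strand in 2 exons (Gm10800), chr9:3017963-3018079 on the plus strand (Gm10719), chr9:3023926-3024509 on the plus strand in 2 exons (Gm10718), chr2:98663894-98664075 on the plus strand in 2 exons (Gm10801) and chr14:19417269-19418785 on the minus strand in 2 exons (Gm21738).
Gm10800: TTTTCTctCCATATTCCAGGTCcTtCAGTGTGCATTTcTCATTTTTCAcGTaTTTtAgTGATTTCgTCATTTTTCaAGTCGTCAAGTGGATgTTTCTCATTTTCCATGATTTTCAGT
Gm10719: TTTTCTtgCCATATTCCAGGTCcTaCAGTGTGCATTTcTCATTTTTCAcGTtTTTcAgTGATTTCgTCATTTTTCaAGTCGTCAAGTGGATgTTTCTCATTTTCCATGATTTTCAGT
Gm10718: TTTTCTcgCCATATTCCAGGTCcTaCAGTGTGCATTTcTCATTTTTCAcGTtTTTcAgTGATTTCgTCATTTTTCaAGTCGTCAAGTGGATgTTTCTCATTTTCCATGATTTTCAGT
Gm10801: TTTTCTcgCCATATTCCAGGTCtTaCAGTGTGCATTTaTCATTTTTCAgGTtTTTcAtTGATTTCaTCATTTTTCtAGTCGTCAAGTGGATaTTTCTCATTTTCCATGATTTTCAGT
Gm21738: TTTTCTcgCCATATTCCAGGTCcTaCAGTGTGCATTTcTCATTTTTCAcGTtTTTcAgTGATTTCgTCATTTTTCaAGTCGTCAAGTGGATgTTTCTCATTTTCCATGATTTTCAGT
Over this window, whose choice favors a high match, the 12 genes matched Gm10719 at 93.2% (Gm10801) to 100% (Gm10720). Over whole transcripts, 22.7% of the words of Gm10717 and 73.3% of those of Gm10720 lay in Gm10719. The annotation places the 12 genes on chromosomes 2, 9 and 14 and calls them protein coding.

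The 72 LINE-1-like genes were joined by shared words to Gm47164, whose longest open frame of 1300 codons is of the length of a LINE-1 protein with reverse transcriptase. The catalytic motif of that enzyme, alanine, aspartate, aspartate and methionine in any frame of either strand, was found in 29 of the 72 against 11 of the 492 other matched genes. An open frame of at least 1200 codons was found in 11 of the 72 and in 2 of the others, 46 of the 72 are annotated as processed pseudogenes, and 65 have a single exon. A window of 120 bases around the motif, its codons in capitals, is given for Gm47164 (chr10:103209901-103210020, minus strand), Gm48082 (chr12:10992415-10992534, plus strand), Gm42785 (chr3:39825637-39825756, plus strand) and Gm47578 (chr10:99721296-99721415, printed on the minus strand, since the motif lies opposite to the transcript).
Gm47164: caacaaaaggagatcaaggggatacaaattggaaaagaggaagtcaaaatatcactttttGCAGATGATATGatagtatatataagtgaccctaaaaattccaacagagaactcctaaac
Gm48082: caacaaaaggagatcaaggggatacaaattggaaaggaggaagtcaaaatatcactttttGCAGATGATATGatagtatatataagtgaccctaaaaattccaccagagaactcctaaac
Gm42785: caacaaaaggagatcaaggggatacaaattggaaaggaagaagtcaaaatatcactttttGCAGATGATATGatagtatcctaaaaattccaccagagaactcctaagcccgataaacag
Gm47578: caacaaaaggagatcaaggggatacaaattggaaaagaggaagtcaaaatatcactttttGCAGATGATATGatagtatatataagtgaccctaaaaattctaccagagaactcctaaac
The last class of interest for the counts, the rRNA locus, holds Gm42418 and Gm26917, which lie within 5000 bases of the annotated rRNA gene CT010467.1 on chromosome 17. Of the 1831 bases of Gm42418 (a single exon at chr17:39846958-39848788, plus strand), 1790 lay in words shared with CT010467.1. The window chr17:39848537-39848656 holds the 41 bases that did not, in lower case.
Gm42418: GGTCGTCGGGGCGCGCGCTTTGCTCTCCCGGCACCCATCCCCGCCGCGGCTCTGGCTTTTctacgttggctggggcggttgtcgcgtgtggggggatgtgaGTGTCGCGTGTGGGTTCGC

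The counts on the 589 genes were concentrated in a few names. Over the 6 TEC libraries Gm29216 alone held 34.8% of them, Gm29216 and Gm42418 together 51.3%, and the 12 most abundant 83.6%, and 38 genes made up 90% of them. Of the 589 genes, 16 were above 1000 CPM, 92 above 100 CPM and 221 below 20 CPM. Among the 20 genes with the most counts in the whole TEC table, 7 were predicted genes. At least 10 CPM was reached in each of the 6 libraries by 383 genes and in both group means by 513, whereas 57 reached it in the glutamine mean only and 19 in the vehicle mean only.

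In the vehicle libraries the 589 genes held 15.6%, 18.9% and 21.2% of all counts in replicates 3, 4 and 5, and in the glutamine libraries 25.5%, 24.3% and 28.7% in replicates 1, 2 and 3. The groups did not overlap, with means of 18.6% ± 2.81 and 26.2% ± 2.27 (SD, n = 3), a difference of 7.59 percentage points. Without Gm29216 the difference was 4.01 points and the groups overlapped, with glutamine replicate 2 below all vehicle libraries. The 95% Wilson interval of the lowest share was 15.59% to 15.64%, which covers counting error only. Of all counts on predicted genes, these genes held 96.8% to 97.7% in TECs. A higher share in bulk RNA cannot tell more of a kind of cell from more RNA per cell.

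**Figure D1:**
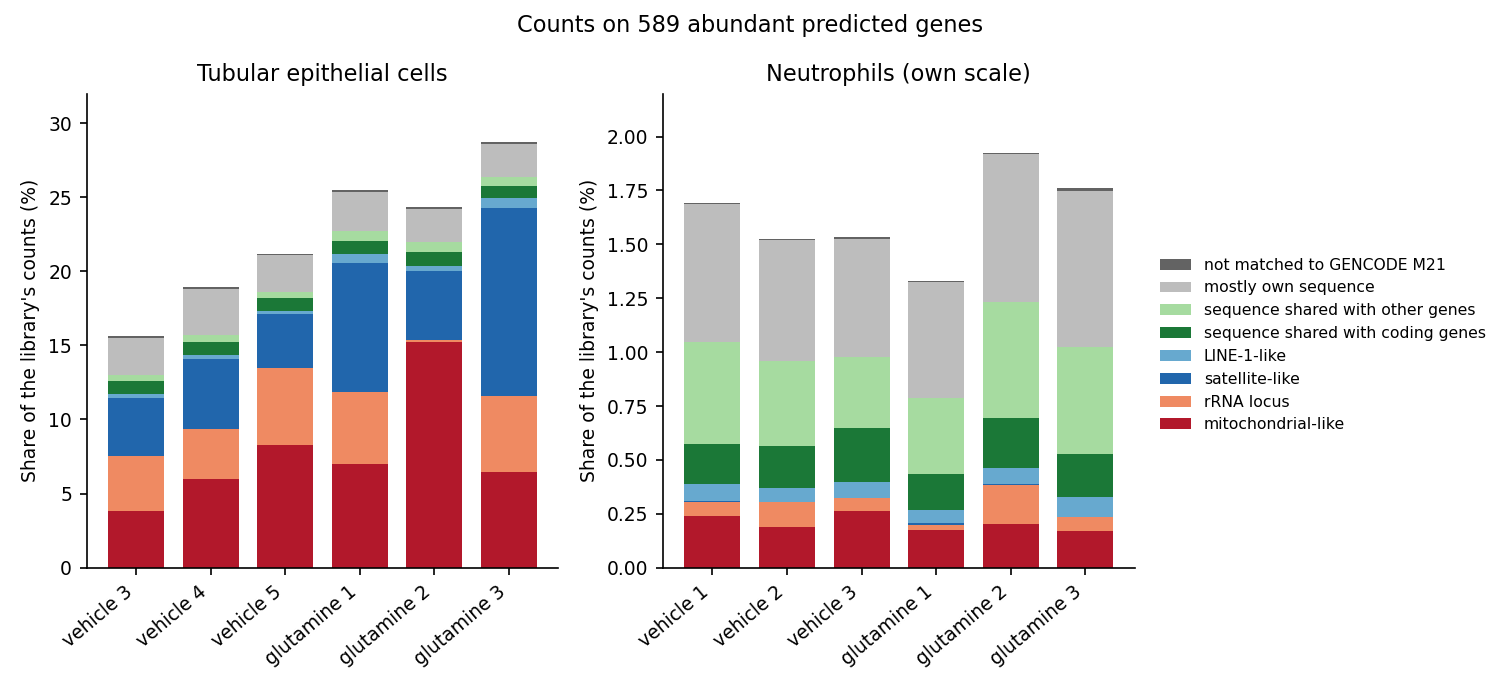
Share of each library's counts (%) on the 589 predicted genes, stacked by sequence class, for 6 TEC libraries on the left and 6 neutrophil libraries on the right with an axis of its own. The 3 glutamine TEC libraries sit at 24.3% to 28.7% and the 3 vehicle libraries at 15.6% to 21.2%, while all neutrophil libraries lie below 2%.

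The difference in share was the sum of 414 genes whose mean was higher with glutamine, adding 9.33 points, and 175 whose mean was lower, adding -1.73 points. By class, the 12 satellite-like genes made up 4.10% ± 0.568 of the vehicle counts and 8.68% ± 4.01 of the glutamine counts (SD, n = 3), a difference of 4.58 points. The 2 mitochondrial-like genes made up 6.04% ± 2.26 and 9.57% ± 4.89 (SD, n = 3), a difference of 3.53 points that was 0.711 points without glutamine replicate 2. The genes of the rRNA locus made up 4.09% ± 0.974 and 3.36% ± 2.78 (SD, n = 3), a difference of -0.723 points that was 0.877 points without glutamine replicate 2. The other 573 genes together held 4.35% ± 0.414 and 4.55% ± 0.305 (SD, n = 3), a difference of 0.202 points that was 0.0317 points without glutamine replicate 1 and 0.439 points without vehicle replicate 4. The difference in share thus lay mainly in the satellite-like and mitochondrial-like genes, and these differed between libraries of 1 group. Satellite-like sequence held 8.73%, 4.65% and 12.7% in glutamine replicates 1, 2 and 3, whereas mitochondrial-like sequence held 7.03%, 15.2% and 6.47% in the same libraries.

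Across all 14734 genes tested in TECs with edgeR's quasi-likelihood test, 0 genes had a Benjamini-Hochberg adjusted p-value below 0.05 (0.0%), and so 0 of the 588 predicted genes tested, whose smallest adjusted p-value was 0.101. The limma-voom test also called 0 genes. The 1 gene that did not pass the expression filter was Gm49804. At an unadjusted p-value below 0.05, 213 of the 588 (36.2%) were higher with glutamine against 7.23% of all genes tested, and 24 (4.08%) were lower against 5.51%. These counts include genes that met the rule through 1 group only, and among the 512 tested that reached 10 CPM in both group means 175 were higher and 20 lower, a count added after seeing the data. The median log2 fold change of the 588 was 0.52, beside 0.01 for all genes tested, with 445 genes above 0 and 143 below. Over the 512 genes the median was 0.49. In DESeq2's Wald test, which called more genes, 97 of 586 (16.6%) were higher at an adjusted p-value below 0.05 against 1.81% of 13016 genes, and 5 (0.853%) were lower against 0.561%. All libraries of the groups lay apart in CPM with glutamine higher for 110 genes (18.7%, against 5.61% of all genes tested) and with glutamine lower for 46 (7.82%, against 15.4%). The DESeq2 counts, the counts of groups lying apart and the later TEC counts by class or setting also cover genes that met the rule through 1 group only. None of these was repeated for the 512 genes, so they are a description.

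The count of calls changed with the libraries used. Without glutamine replicate 2, edgeR's quasi-likelihood test called 29 of 589 genes (4.92%) at an adjusted p-value below 0.05, against 0.23% of 15638 genes, and all 29 were higher with glutamine. Of these, 22 were LINE-1-like and 4 satellite-like. Without vehicle replicate 5, 1 of the 589 genes was called, beside 4 of all 15540 tested. It was the LINE-1-like Gm48417, which was at 0 CPM in the other 2 vehicle libraries.

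**Figure D2:**
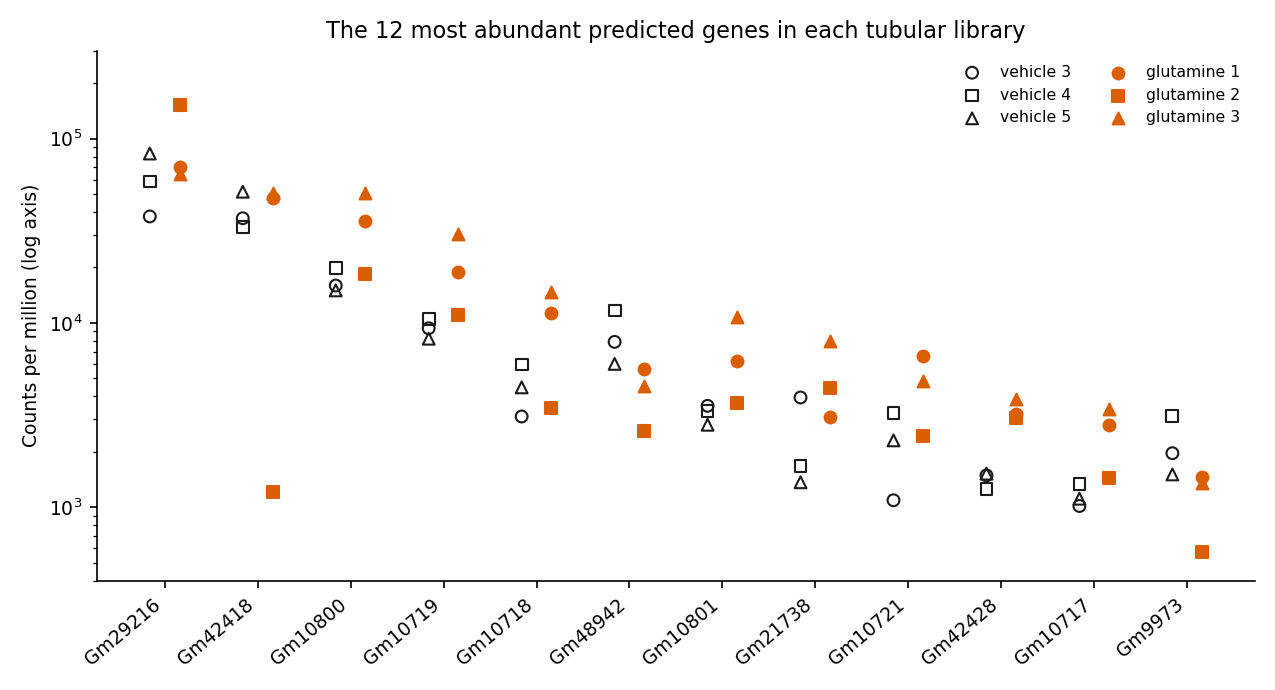
CPM on a log axis of the 12 most abundant predicted genes in the 3 vehicle (open symbols) and 3 glutamine (filled symbols) TEC libraries, 1 symbol per library. Gm42418 is at 1204 CPM in glutamine replicate 2 and between 33230 and 51548 CPM in the others, and the 3 glutamine libraries of Gm42428 lie above its vehicle libraries.

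Gm29216, the copy of a piece of mt-Co1, had 37845, 58576 and 83059 CPM in vehicle replicates 3, 4 and 5 and 70285, 152063 and 64660 CPM in glutamine replicates 1, 2 and 3. Glutamine replicate 2 was 1.83 times the next highest library, and the groups overlapped. Its log2 fold change was 0.83 (SE 0.39, adjusted p = 0.402, edgeR quasi-likelihood test), and 0.30 without glutamine replicate 2. Gm13339, the copy of mt-Nd2, had 91.0, 1530 and 38.5 CPM with vehicle and 15.4, 24.2 and 22.2 CPM with glutamine. All glutamine libraries were below all vehicle libraries, but vehicle replicate 4 was 16.8 times the next highest and set the fitted log2 fold change of -4.53 (SE 1.11, adjusted p = 0.208, edgeR quasi-likelihood test).

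Gm42418, at the rRNA locus, had 37002, 33230 and 51548 CPM with vehicle and 47782, 1204 and 50806 CPM with glutamine. Glutamine replicate 2 was 36.6 times below the mean of the other 5 libraries, and without it the log2 fold change went from -0.15 (SE 0.83) to 0.42, neither past the threshold. Its neighbour in sequence, CT010467.1, had 19587, 8875 and 8078 CPM with vehicle and 18431, 15428 and 7438 CPM with glutamine and was not low in that library. The sum of both names was 56589, 42105 and 59625 CPM with vehicle and 66213, 16632 and 58244 CPM with glutamine, and it was lowest in glutamine replicate 2 as well. Gm26917, the other gene of the locus, which shared 0% of its words with any other gene, had 227, 219 and 346 CPM with vehicle and 355, 413 and 311 CPM with glutamine, and glutamine replicate 2 was its highest library. Only Gm42418 of these 3 names was low in glutamine replicate 2.

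The 12 satellite-like genes were all higher with glutamine at an unadjusted p-value below 0.05, and 11 of them, all but Gm10721, at an adjusted p-value below 0.05 in DESeq2's Wald test, beside 7.23% and 1.81% of all genes tested. The groups lay apart for 6 of the 12, beside 5.61%, and the summed share overlapped, at 3.92%, 4.74% and 3.64% with vehicle and 8.73%, 4.65% and 12.7% with glutamine. Gm10800 (660 exonic bases at chr2:98666547-98667301) had 15960, 19856 and 15018 CPM with vehicle and 35536, 18485 and 50793 CPM with glutamine. The log2 fold change was 1.21 (SE 0.32, adjusted p = 0.217, edgeR quasi-likelihood test), and glutamine replicate 2 lay within the vehicle range. In Gm10719 (1800 exonic bases in 12 exons at chr9:3017408-3021593) the vehicle libraries held 9359, 10489 and 8213 CPM and the glutamine libraries 19015, 11011 and 30522 CPM. Here the groups lay apart, with glutamine replicate 2 just above the vehicle libraries, and the log2 fold change was 1.28 (SE 0.32, adjusted p = 0.209, edgeR quasi-likelihood test).

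In Gm10718, Gm10801 and Gm10717, glutamine replicates 1 and 3 were again above all vehicle libraries. Gm10718 had 3107, 5958 and 4470 CPM with vehicle and 11303, 3447 and 14755 CPM with glutamine (log2 fold change 1.28, SE 0.44). Gm10801 had 3550, 3341 and 2802 CPM with vehicle and 6212, 3695 and 10740 CPM with glutamine (log2 fold change 1.26, SE 0.33). Gm10717, with 18 exons on chromosome 9, had 1016, 1338 and 1112 CPM with vehicle and 2781, 1433 and 3400 CPM with glutamine (log2 fold change 1.30, SE 0.29, adjusted p = 0.178, edgeR quasi-likelihood test). In Gm21738, with 3940, 1673 and 1366 CPM against 3090, 4445 and 7987 CPM, it was glutamine replicate 1 that lay within the vehicle range. Gm10721 had its highest value in glutamine replicate 1, with 1091, 3254 and 2306 CPM against 6656, 2431 and 4813 CPM. Of the 12 genes, 11 were highest in glutamine replicate 3 and 1, Gm10721, in glutamine replicate 1.

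Fitted log2 fold changes of the 12 lay between 1.13 and 1.35 with a median of 1.26. Since the names share sequence, they are not independent measurements. Under 13 alternatives, which comprise other tests, scalings, filters and each library left out, the median lay between 0.89 and 1.52, and 11 or 12 of the 12 were higher at an unadjusted p-value below 0.05. The difference in their summed share was between 2.59 points without glutamine replicate 3 and 6.60 points without glutamine replicate 2. Their bases were poor in G and C, at 34.3% to 36.0%.

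The 72 LINE-1-like genes held few counts, and nearly all of them were higher with glutamine. They summed to 2585, 2408 and 1981 CPM in vehicle replicates 3, 4 and 5 and to 5818, 3063 and 7218 CPM in glutamine replicates 1, 2 and 3. All glutamine libraries were above all vehicle libraries, with glutamine replicate 2 the nearest to them. With glutamine, 71 of the 72 had a log2 fold change above 0 and Gm47025 was at -0.01, the median was 1.45, and 62 passed an unadjusted p-value of 0.05, all higher, beside 7.23% of all genes tested. In DESeq2's Wald test 49 were higher at an adjusted p-value below 0.05, beside 1.81% of all genes, and for 36 the groups lay apart, beside 5.61%. The median and these counts may include genes that reached 10 CPM in the glutamine mean only, which favors higher values. They were not repeated for genes at 10 CPM in both group means, so they are a description. Under the 13 alternatives the median lay between 1.08 and 1.74 and between 52 and 68 genes were higher at an unadjusted p-value below 0.05. Glutamine replicate 3 was the highest library for 56 of them and glutamine replicate 1 for 14. The size of the family depended on the share of words that joins 2 genes: at 10% it held these 72, at 20% it held 54 with a median of 1.48 and at 5% it held 242 with a median of 0.75.

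Of the 6 genes with the smallest p-values among those higher with glutamine, 5 were LINE-1-like. Gm47164, the most abundant of the class (5690 bases in 1 exon at chr10:103207748-103213437, within the span of the coding gene Lrriq1 on the same strand), had 230, 229 and 203 CPM with vehicle and 742, 376 and 775 CPM with glutamine, a log2 fold change of 1.68 (SE 0.26, adjusted p = 0.101, edgeR quasi-likelihood test). Gm48415, a processed pseudogene of 1723 bases on chromosome 12, had 39.9, 58.9 and 44.1 CPM with vehicle and 155, 124 and 243 CPM with glutamine, a log2 fold change of 2.04 (SE 0.28). In both genes every glutamine library was well above the vehicle libraries. Gm44189, within the span of Cntn3, had 16.1, 14.1 and 11.7 CPM against 55.3, 30.0 and 39.0 CPM. The processed pseudogenes Gm48054 and Gm43498 had 17.8, 21.9 and 12.4 CPM against 63.3, 36.2 and 66.5 CPM, and 26.1, 19.3 and 17.2 CPM against 66.0, 41.8 and 95.8 CPM. The groups lay apart in all of them, and without glutamine replicate 2 edgeR's quasi-likelihood test gave each of the 5 an adjusted p-value between 0.0327 and 0.0441. Of the 86 processed pseudogenes, the 46 LINE-1-like had a median log2 fold change of 1.55, the 14 with words of coding genes 0.11 and the other 26 a median of 0.72.

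**Figure D3:**
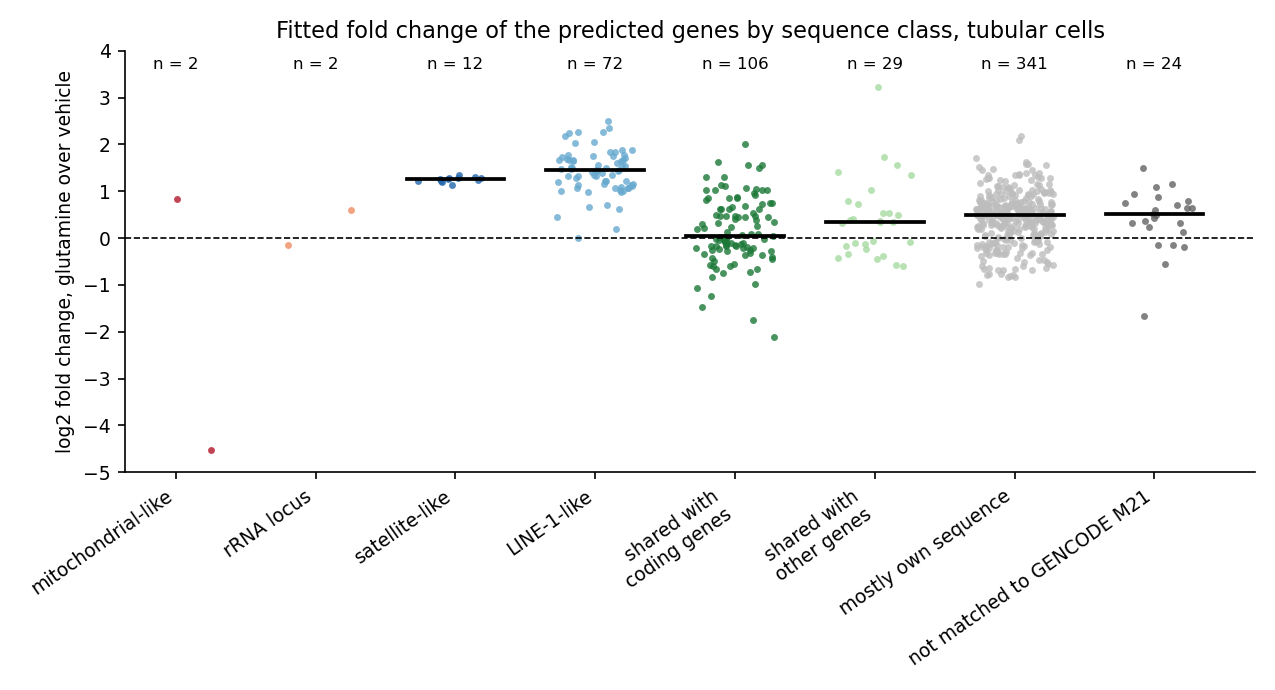
Fitted log2 fold change in TECs, glutamine over vehicle, of the 588 predicted genes tested, 1 point per gene, by sequence class, with the class median as a bar where more than 2 genes were tested and the median of all genes tested as a dashed line at 0.01. The satellite-like genes sit between 1.13 and 1.35 and the LINE-1-like genes around a median of 1.45, while the genes with words of coding genes center on 0.05.

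The 106 genes with words of named coding genes had a median near 0. They summed to 0.904% ± 0.0143 of the vehicle counts and 0.870% ± 0.0869 of the glutamine counts (SD, n = 3), with a median log2 fold change of 0.05. At an unadjusted p-value below 0.05, 20 of the 106 were higher and 10 lower, beside 7.23% and 5.51% of all genes tested. The 20 became 12 to 30 and the 10 became 7 to 14 under the 13 alternatives, with 12 higher without glutamine replicate 2. The groups lay apart with glutamine higher for 8 and lower for 18, beside 5.61% and 15.4% of all genes tested. Gm1821, which shared 79.6% of its words with Ubb, a polyubiquitin gene, had 1156, 1224 and 1063 CPM with vehicle and 895, 918 and 1127 CPM with glutamine (log2 fold change -0.06, SE 0.19). Per kilobase of exons it was at 1093 CPM and Ubb at 10.9 CPM. Gm10012, with 55.7% of its words in Cox7c, a gene of cytochrome c oxidase, had 858, 874 and 870 CPM with vehicle and 589, 597 and 745 CPM with glutamine, and per kilobase it was at 2031 CPM against 32.4 CPM for Cox7c. Gm26377, annotated as a microRNA, lies inside Eef1a1, a translation elongation factor gene, on the same strand and shared 100% of its words with it, and had 825, 768 and 624 CPM with vehicle and 426, 392 and 492 CPM with glutamine (log2 fold change -0.58, SE 0.19). Of the 104 genes whose leading coding partner had a row, 92 were above it per kilobase in TECs, which the choice by TEC level favors, and 52 of 104 in neutrophils. Reads from the shared words cannot be assigned to either gene from the table.

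Genes lower with glutamine at an unadjusted p-value below 0.05 numbered 24 of 588 (4.08%), beside 5.51% of all genes tested. Of the 6 with the smallest p-values, Gm17711, a pseudogene on the strand opposite to Abracl with 84.0% of its words in it, had 129, 135 and 105 CPM with vehicle and 51.4, 41.4 and 45.7 CPM with glutamine. Its log2 fold change was -1.24 (SE 0.20, adjusted p = 0.101, edgeR quasi-likelihood test), the groups lay apart, and Abracl itself had a log2 fold change of -0.68 (SE 0.42). Gm20659, antisense to the phosphatase gene Dusp3 with 92.6% of its words in it, had 67.7, 60.2 and 46.2 CPM against 28.7, 31.3 and 26.2 CPM, whereas Dusp3 had a log2 fold change of 0.03 (SE 0.23). Gm17300, a long intergenic noncoding RNA that shared 34.2% of its words with Snhg3, had 162, 182 and 99.3 CPM against 76.6, 64.3 and 77.9 CPM. These 3 genes had the glutamine libraries close together and below the vehicle libraries. In Gm50387, which had no entry in GENCODE M21, the CPM were 40.1, 15.4 and 11.7 against 6.72, 8.02 and 3.96. Gm49416, a protein-coding model across 1810009A15Rik, Ints5 and Lbhd1 on chromosome 19, had 84.9, 52.1 and 19.3 CPM with vehicle and 15.4 and 13.0 CPM in glutamine replicates 1 and 3, and its groups overlapped, since glutamine replicate 2 lay above vehicle replicate 5. Together with Gm13339 these make up the 6, and all but Gm13339 were lower at an adjusted p-value below 0.05 in DESeq2's Wald test, from 1.62e-05 for Gm17711 to 0.0484 for Gm20659.

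Among the genes outside these families, 3 of the 12 most abundant remain. Gm42428 (302 bases in 1 exon at chr5:44136620-44136921, a long intergenic noncoding RNA) had 1489, 1251 and 1521 CPM with vehicle and 3188, 3036 and 3882 CPM with glutamine. Its groups lay apart with little spread, and glutamine replicate 2 was close to its partners, with a log2 fold change of 1.41 (SE 0.21, adjusted p = 0.101 in edgeR's quasi-likelihood test and 2.22e-07 in DESeq2's Wald test). It shared 94.1% of its words with Gm48275, which was listed at 0 in all TEC libraries. Gm48942 (842 exonic bases at chr14:91638499-91647839) had 7896, 11679 and 5996 CPM with vehicle and 5660, 2592 and 4534 CPM with glutamine, a log2 fold change of -0.82 (SE 0.30, adjusted p = 0.301, edgeR quasi-likelihood test). Gm9973 (4257 exonic bases at chr13:4350397-4391265) had 1964, 3138 and 1506 CPM against 1458, 568 and 1355 CPM, a log2 fold change of -0.79 (SE 0.34). In both the glutamine libraries lay below the vehicle libraries, vehicle replicate 4 was highest and glutamine replicate 2 lowest, and 14.1% of the words of Gm48942 lay in Gm9973. With Gm42418, these had the largest differences in mean CPM downward.

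The 341 genes with mostly their own sequence summed to 2.74% ± 0.353 of the vehicle counts and 2.37% ± 0.209 of the glutamine counts (SD, n = 3), while their median log2 fold change was 0.49. The sum was lower while the median was above 0, and Gm48942 and Gm9973 alone differed by -0.426 and -0.108 points of the counts. Of these 341, 106 were higher and 12 lower at an unadjusted p-value below 0.05, beside 7.23% and 5.51% of all genes tested, which are also the background of the counts that follow. The 106 became 59 to 130 and the 12 became 7 to 20 under the 13 alternatives, with 59 higher without glutamine replicate 1. The 29 genes with words in other genes had a median of 0.35, with 6 higher and 0 lower at the same level. Their median lay between 0.22 and 0.57 under the 13 alternatives, with 4 to 9 higher and 0 to 3 lower. Of the 24 tested genes without a GENCODE entry 6 were higher and 1, Gm50387, lower. At the threshold of the rule, Gm45528 and Gm38365 were just inside with means of 10.1 CPM each, and Gm47956 and Gm38047 just outside with means of 9.98 and 9.93 CPM. The 1372 tested predicted genes below the threshold had a median log2 fold change of 0.46, with 966 above 0 and 406 below, and 138 were higher and 15 lower at an unadjusted p-value below 0.05.

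**Figure D4:**
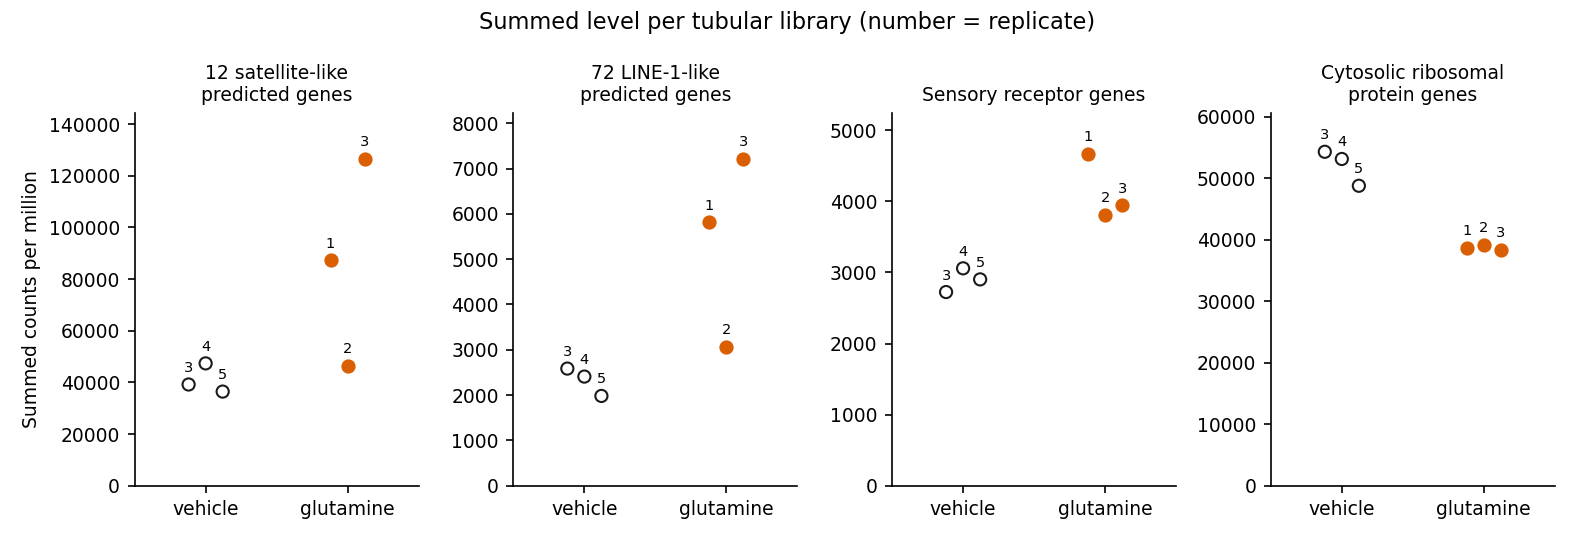
Summed CPM in each TEC library, labelled by replicate number, of the satellite-like genes, the LINE-1-like genes, the sensory receptor genes and the cytosolic ribosomal protein genes, for vehicle (open) and glutamine (filled). Glutamine replicate 2 is the lowest glutamine library in the first 3 panels, and in the last all glutamine libraries lie below all vehicle libraries.

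Other gene groups were read in the same libraries, and 0 of their genes passed the adjusted threshold in edgeR's quasi-likelihood test. Sensory receptor genes, which encode odorant, pheromone and taste receptors, summed to 2724 to 3058 CPM with vehicle and 3813 to 4669 CPM with glutamine, and of 291 tested 85 were higher and 0 lower at an unadjusted p-value below 0.05, beside 7.23% and 5.51% of all genes tested. Cytosolic ribosomal protein genes summed to 48805 to 54335 CPM with vehicle and 38383 to 39176 CPM with glutamine, and of 79 tested 1 was higher and 13 lower at the same level. Genes named Rik, a further set of models without a functional name, had a log2 fold change of 0.10 at the median over 610 tested. The 11 nuclear noncoding RNAs overlapped in sum, at 21284.5 to 28182 CPM with vehicle and 23096 to 40807 CPM with glutamine. Of 10 tested, 2 were higher and 0 lower at the same level. Among them Neat1 had 1076, 962 and 1068 CPM with vehicle and 2477, 2878 and 1559 CPM with glutamine, whereas the groups of Malat1 overlapped. The 9 tubular markers, which include the injury markers Havcr1 and Lcn2, summed to 5042 to 9219 CPM with vehicle and 5555 to 6772 CPM with glutamine. In vehicle replicate 3, which had the highest sum, Lcn2 was the largest part. Prom1, the sort marker, was at 70.3 to 80.1 CPM in every library. The injury marker Havcr1 had 868, 590 and 105 CPM with vehicle and 90.3, 45.6 and 24.6 CPM with glutamine, while the groups overlapped for the injury marker Lcn2, with 3941, 1630 and 685 CPM against 1659, 1430 and 986 CPM. Ptprc, which encodes CD45, was at 0.101 to 2.57 CPM, the 5 immune markers summed to 32.4 to 82.1 CPM and the 4 stromal markers to 6.73 to 18.4 CPM. Neutrophil markers summed to 98.6 to 237 CPM and endothelial markers to 191 to 357 CPM. Hemoglobin genes, which mark red blood cells, were highest in vehicle replicate 5 (1573 CPM) and glutamine replicate 2 (2380 CPM) and between 317 and 602 CPM in the others. The part of these groups in the share of predicted genes was not tested.

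In neutrophils the same 589 genes held a smaller share of the counts, a direction that their choice by level in TECs partly fixes. Their share was 1.69%, 1.53% and 1.53% in vehicle replicates 1, 2 and 3 and 1.33%, 1.92% and 1.76% in glutamine replicates 1, 2 and 3. The groups overlapped, with means of 1.58% ± 0.0946 and 1.67% ± 0.306 (SD, n = 3). All predicted genes together held 2.43% to 3.20% of the counts of a neutrophil library, and those below the threshold, which the rule did not choose, summed to 10773 to 13379 CPM there against 5184 to 7559 CPM in TECs. The tables of both cell types were fitted separately, so levels are set side by side without a test. All TEC labels have a form that no PMN label has. The part of library making or sequencing in the ratios between cell types was not tested and cannot be told apart from cell type in these libraries. Of the 589, 565 had any count in neutrophils, 120 reached a mean of 10 CPM and 36 were higher there than in TECs. Of the 565, 284 were at least 10 times and 102 at least 100 times higher in TECs, and 24 of the 589 were at 0 in all neutrophil libraries. The Spearman rho of both levels was 0.22 across the 589 genes, over a range of TEC levels cut by the rule, and the genes are not independent replicates and share their libraries.

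**Figure D5:**
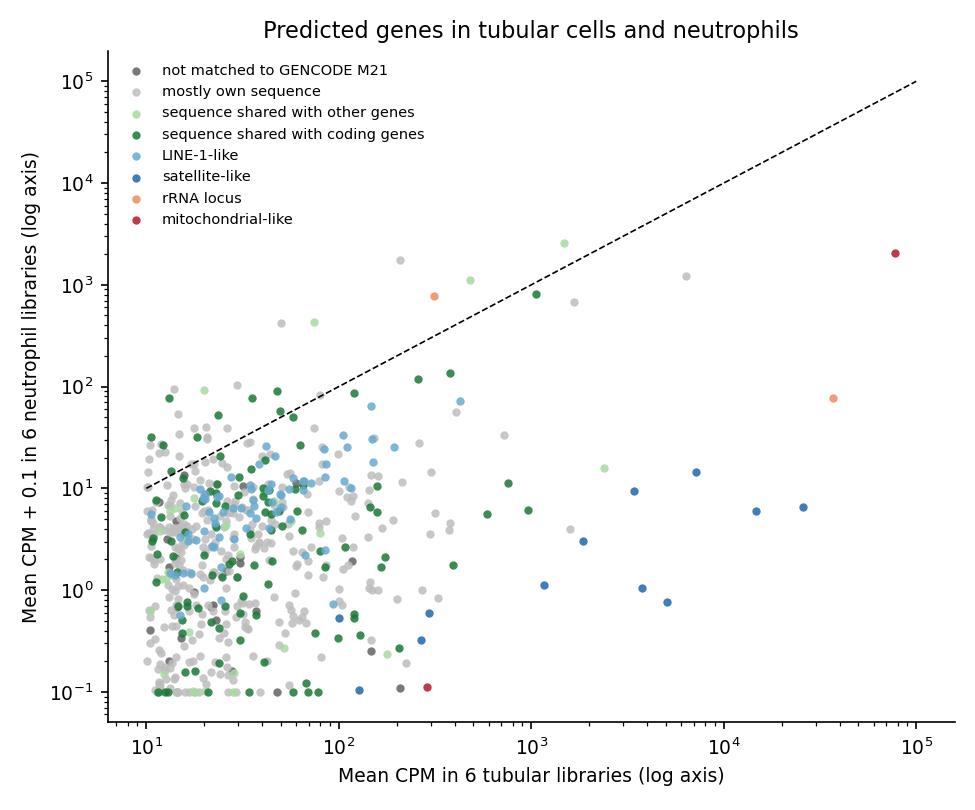
Mean CPM plus 0.1 of each predicted gene in neutrophils against its mean CPM in TECs, both on log axes, 1 point per gene, colored by sequence class. Satellite-like genes lie far below the line of equal level, at a summed ratio of 1502, and LINE-1-like genes closer to it, at 5.17.

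The classes differed in this ratio. Summed over its genes, the satellite-like class was 1502 times higher in TECs and was at 0.00152% to 0.00796% of the counts of a neutrophil library. Gm42418 was 479 times and Gm29216 37.7 times higher in TECs, whereas the LINE-1-like class was 5.17 times and the class with words of coding genes 4.34 times higher. The LINE-1-like genes summed to 802, 639 and 758 CPM in the vehicle and 626, 735 and 901 CPM in the glutamine neutrophil libraries. Unlike in TECs, these groups overlapped, but the difference between the cell types was not tested. Gm26917 of the rRNA locus was at 770 CPM in neutrophils and 312 CPM in TECs, the opposite order to its neighbour Gm42418.

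Of the 6 most abundant of these genes in neutrophils, which held 58.6% of the counts of the 589 there, 2 are also among the 12 of TECs. Gm37376, a model of 453 bases on chromosome 19 whose words all lie in the nuclear noncoding RNA Malat1, had 2816, 2353 and 2207 CPM with vehicle and 1908, 3541 and 2722 CPM with glutamine. In TECs it had 516, 1700 and 949 CPM against 2005, 2453 and 1292 CPM (log2 fold change 1.03, SE 0.38). Its groups overlapped in both cell types. Gm29216 had 2386, 1873 and 2632 CPM against 1759, 2025 and 1693 CPM in neutrophils, and Gm43305, which was at 208 CPM in TECs, had 1849, 1485 and 2089 CPM against 705, 1855 and 2475 CPM. For Gm48942 the values were 1241, 1110 and 903 CPM against 1526, 1397 and 1126 CPM. Its neutrophil groups overlapped, and the difference between the cell types was not tested. Gm20186 had 1256, 1140 and 435 CPM against 1183, 1167 and 1515 CPM, and Gm1821 664, 883 and 901 CPM against 642, 957 and 829 CPM.

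Between glutamine and vehicle, edgeR's quasi-likelihood test called 0 of the 10130 genes tested in neutrophils and 0 of the 427 predicted genes among them, with adjusted p-values of 0.723 or more for the 427. DESeq2's Wald test called 237 of the 10130 genes and 7 of the 427, a smaller share than of all genes, and limma-voom 0. At an unadjusted p-value below 0.05, 9 of the 427 (2.11%) were higher against 2.04% of all genes tested and 2 (0.468%), Gm43775 and Gm42715, were lower against 1.37%, shares close to or under the background. The groups lay apart with glutamine higher for 36 (8.43%, against 5.65% of all genes) and lower for 17 (3.98%, against 4.91%). The median log2 fold change was 0.13 beside 0.00 for all genes. In counts simulated for neutrophils with 200 genes changed 4-fold among 9261, the test recovered 0% of them, whereas in TECs it recovered 69% of 200 among 14229. Calls on genes left unchanged made up 8% of those in TECs and 100% of those in neutrophils. The neutrophil libraries held S100a8 at 6511 to 26050 CPM and Ptprc at 317 to 1134 CPM, but also Cd74, a marker of antigen-presenting cells, at 3831 to 10587 CPM, the tubular gene Umod at 990 CPM in vehicle replicate 1 and the endothelial gene Kdr at 621 CPM in vehicle replicate 2. Of the other neutrophil markers, S100a9 was at 6708 to 21385 CPM and Csf3r at 579 to 1764 CPM. Cxcr2 was at 466 to 1088 CPM and Ly6g at 48.5 to 172 CPM, while Mpo, a granule enzyme, was at 0 in 5 of the 6 libraries.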

How the data were processed

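RNA was measured in 6 TEC and 6 PMN libraries. The authors trimmed reads with Trim Galore 0.6.4 and deposited Salmon 1.0.0 estimated counts per gene symbol for mm10, per the submitters' processing notes. The annotation release is not given in the sources used here. The deposited PMN estimated counts were text with extra points in 3.2% of cells and dates in 0.39%, and were decoded, and the 2 columns of each PMN library, whose relation the sources do not state, were averaged. The tables hold 0 columns of other samples. By symbol, the TEC table as used here has rows for 1782 of 2326 GENCODE M21 genes of chromosome 17, 896 of 1395 of chromosome 18, 1090 of 1393 of chromosome 19 and 0 of chromosomes X, Y and M.

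Members and lists were chosen with earlier results of these data known, and sequence classes after values were seen. Estimated counts were rounded and tested per cell type with edgeR 4.0.16 in R 4.3.3 (TMM, filterByExpr, quasi-likelihood test, Benjamini-Hochberg adjustment, threshold 0.05). The test was tested on simulated data. Alternatives were DESeq2 1.42.0, limma 3.58.1, other scalings and filters, each library left out, and other membership thresholds. Family thresholds and counts by class under each alternative were added after seeing the data. CPM is the count over the library total. Words of 50 bases came from GENCODE M21 transcripts on GRCm38.

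Genes were named by rule: the 12 highest in TECs, the 6 smallest p-values in each direction, the 2 on each side of the threshold, the 6 highest in PMNs, and the 6 largest positive and 3 largest negative differences in mean CPM. Others named were chosen after their values were seen.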

Additional observations from a re-analysis of the deposited data

Results flagged for a closer look

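For 5 genes the groups lay apart in opposite directions in TECs and neutrophils. The difference between the cell types was not tested. They are 1.17% of the 427 predicted genes tested in both cell types, beside 0.849% (76) of all 8950 genes tested in both, so the count is not a result about predicted genes. Gm21988 had 210, 175 and 151 CPM with vehicle and 137, 138 and 135 CPM with glutamine in TECs, and 5.25, 6.28 and 4.99 CPM against 14.2, 12.4 and 19.6 CPM in neutrophils. Gm29666 and Gm37932 were likewise lower with glutamine in TECs and higher in neutrophils, and Gm48418 and Gm22398 were higher in TECs and lower in neutrophils.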

How the results depend on the processing

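The count of genes called depended on the test and filter. In TECs DESeq2 called 308 of 13016 genes and 102 of 586 predicted genes, and edgeR without an expression filter 425 of 29116 and 143 of 589. Leaving out each library gave 0 to 36 genes and 0 to 29 predicted genes. The highest counts were without glutamine replicate 2, at 0.23% of all genes and 4.92% of the predicted genes. Without vehicle replicate 5 they were 4 of 15540 genes and 1 of 589. Of the calls, 76.3% were higher with DESeq2, 72.7% without the filter, 94.4% without glutamine replicate 2 and 25% (of 4) without vehicle replicate 5. The median of all genes moved to 0.14 without the filter. In PMNs DESeq2 called 237 of 10130 genes and 7 of 427 predicted genes, a smaller share than of all genes. The median log2 fold change of the predicted genes in TECs was 0.57 with TMM factors computed without predicted, Rik and sensory receptor genes, and 0.44 to 0.65 with each library left out. The difference in share was 4.01 points without Gm29216, where the groups overlapped, and 6.11 to 8.90 points with each library left out. In neutrophils it was -0.0368 to 0.259 points. Of 376 values of 29 named genes, 321 kept direction and side of the threshold, 49 passed it and 6 reversed. With each library left out Gm42418 lay between -0.61 and 0.42 (above 0 without vehicle replicate 5 or glutamine replicate 2), Gm20186 between -0.74 and 0.13 (above 0 without vehicle replicate 3, glutamine replicate 2 or glutamine replicate 3) and Gm1821 between -0.17 and 0.018 (above 0 without glutamine replicate 1). The cause was not tested. The share without mitochondrially encoded genes was not run, since the tables as used hold 0 such rows. No paired analysis was possible because only number 3 occurs in both TEC groups, while PMN replicates carry no number of their own.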
